A study of Rattus norvegicus with 12 samples.

Results

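The genes of fatty acid and triglyceride synthesis and storage were followed in primary rat hepatocytes exposed to triclosan or to a related diphenyl ether. The 37 genes were chosen by their biochemical role, and probes were matched to them through RefSeq transcripts. All 37 had a probe, and 36 had a probe well above background on all 3 arrays of a group, out of 20359 genes or transcripts measured, 10681 of them with a symbol. The exception was Lipe, which encodes hormone-sensitive lipase. Its 2 probes were above background on 0 and 1 of 12 arrays, and it has no value here. The other 36 were above background on 12 of 12 arrays. Where a gene had several such probes the brightest was used. Hepatocytes frozen from male Sprague Dawley rats were thawed, kept for 24 h in culture and then treated for 24 h. The 4 groups had 3 one-colour arrays each. Cells were given 30 µM of triclosan, of diclosan, or of CCPB, which stands for 1-chloro-3-(4-chlorophenoxy) benzene, or the vehicle DMSO alone. Triclosan is an antibacterial phenol. Diclosan keeps its hydroxyl group and lacks a chlorine atom that triclosan carries, and CCPB has no hydroxyl group and carries a chlorine atom at the meta position to its ether oxygen. The submitters describe the arrays of a group as independent experiments without saying whether these used different animals or lots of cells, so the p-values measure the spread between these experiments only.

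Hepatocytes make fatty acids in the cytosol from citrate that leaves the mitochondria. ATP citrate lyase releases acetyl-CoA, acetyl-CoA carboxylase turns it into malonyl-CoA, and fatty acid synthase builds palmitate, which desaturases and elongases then modify. Acyl-CoA synthetases activate the fatty acids, acyltransferases join them to a glycerol backbone to give triglyceride, and lipid droplets store it until lipases release it again. Insulin acting through SREBP-1 and glucose acting through ChREBP raise the transcripts of many of these enzymes in liver.

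The groups were spread over 2 slides. All triclosan and DMSO arrays shared slide 1 with diclosan replicates 1 and 2, and all CCPB arrays shared slide 2 with diclosan replicate 3. A second fit therefore had the slide as a block. Since CCPB has no slide in common with triclosan or DMSO, that fit links them only through the difference between diclosan replicate 3 and the other diclosan arrays. Between 51.6% and 55.5% of the 45598 probes were above background on an array, and no spot was saturated. All 10 hepatocyte markers on a list of such genes, albumin among them, were measured, against 1 of 6 adipocyte markers and 4 of 10 macrophage markers. In bulk RNA fewer cells of a type and less transcript per cell cannot be told apart. The summed levels of marker lists varied between groups. The summed level of the 10 hepatocyte markers was 2508 to 2568 with CCPB and 2430 to 2527 with DMSO, in units of each array's 75th percentile, ranges that overlap, and 4 of the 10 were called higher (Apoa1, Apob, Ahsg and Hnf4a, beside 14.2% of all genes), of which Apob was left with the slide block. That of the 6 measured of 10 stellate and fibroblast markers was 12.7 to 13.7 with triclosan, 12.8 to 14.8 with diclosan, 9.07 to 10.1 with CCPB and 14.1 to 15.3 with DMSO. Among them Acta2 was higher (0.42, limma adjusted p = 0.0349) and Tagln lower (-0.72, 0.000139) with CCPB than with DMSO, and the list's median difference was -0.13, or 0.10 with the block. The 4 measured of 8 endothelial markers summed to 9.51 to 9.85 with CCPB and 8.16 to 8.61 with DMSO, and the 3 measured of 8 cholangiocyte markers to 3.51 to 3.57 with CCPB and 2.78 to 2.97 with DMSO. The 4 measured macrophage markers summed to 1.03 to 1.20 with diclosan and 0.719 to 0.997 with DMSO, with none called and a median difference of 0.55. On these lists Pecam1, Lrat, Krt19 and Csf1r were not well above background on all 3 arrays of any group, while Kdr, Col1a1, Sox9 and Clec4f were measured. The part of these values in the lipid gene results was not tested.

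With triclosan and with diclosan none of the 36 genes passed the test against DMSO, and with CCPB 8 were higher and 2 lower. Levels are log2 intensities minus the 75th percentile of their array, differences are differences of such levels, and a gene was called where limma's Benjamini-Hochberg adjusted p over all 20359 genes was under 0.05. In triclosan minus DMSO 0 of 36 were called, where 0.0639% of all genes were. The median of the 36 differences was -0.044, against -0.0054 over all genes. Below 0 lay 26 (52.4% of all genes), and 9 had an unadjusted limma p under 0.05 (11.6% of all genes). In diclosan minus DMSO 0 of 36 were called (0.00982% of all genes), with a median of -0.049 against 0.0046 over all genes. Here 26 lay below 0 (47.9% of all genes) and 9 had an unadjusted p under 0.05 (10.6%). In CCPB minus DMSO 10 of 36 were called, while 28.2% of all genes were. The share of lipid genes called, counting both directions, was close to that of all genes. By direction it was not: 8 of 36 were higher, beside 14.2% of all genes, and 2 were lower, beside 14%. The calls of lipid genes lay mostly on the higher side, while those of all genes were nearly even between the directions. This imbalance was not tested. The median difference with CCPB was 0.058 (0.0056 over all genes). These 3 comparisons share their DMSO arrays. Median centring of the arrays left 3 calls for CCPB and no filter on dim probes 4, and without CCPB replicate 3 there were 5. The shares of all genes called under these settings are not given here.

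Without passing the test, some genes had all 3 arrays of a compound on the same side of the DMSO arrays. With triclosan 6 lay below DMSO in this way (10.3% of all genes did), Acly, Fasn, Acss2, Fads1, Agpat3 and Lpin2, and 5 above (8.68%), Elovl6, Acsl4, Gpam, Agpat2 and Dgat2. With diclosan 11 lay below (7.39%), Acly, Acaca, Fasn, Acss2, Slc25a1, Scd, Fads1, Fads2, Elovl1, Acsl3 and Pnpla3, and 2 above (8.7%), Acsl4 and Dgat2. Acly, Fasn, Acss2 and Fads1 lay below DMSO with both compounds, and the DMSO arrays are shared. The share of all genes below DMSO with both was not counted.

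With the slide as a block the calls against DMSO were 0 for triclosan (0.251% of all genes), 0 for diclosan (0.0147%) and 1 for CCPB (3.44%), the last being higher with CCPB (1.65% of all genes higher). That gene was Pnpla2. The median over the 36 was -0.044 for triclosan, -0.017 for diclosan and 0.094 for CCPB under the block. The members' 95% intervals had a median half-width of 0.105 without the block. For CCPB minus DMSO it was 0.172 with the block.

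**Figure D1:**
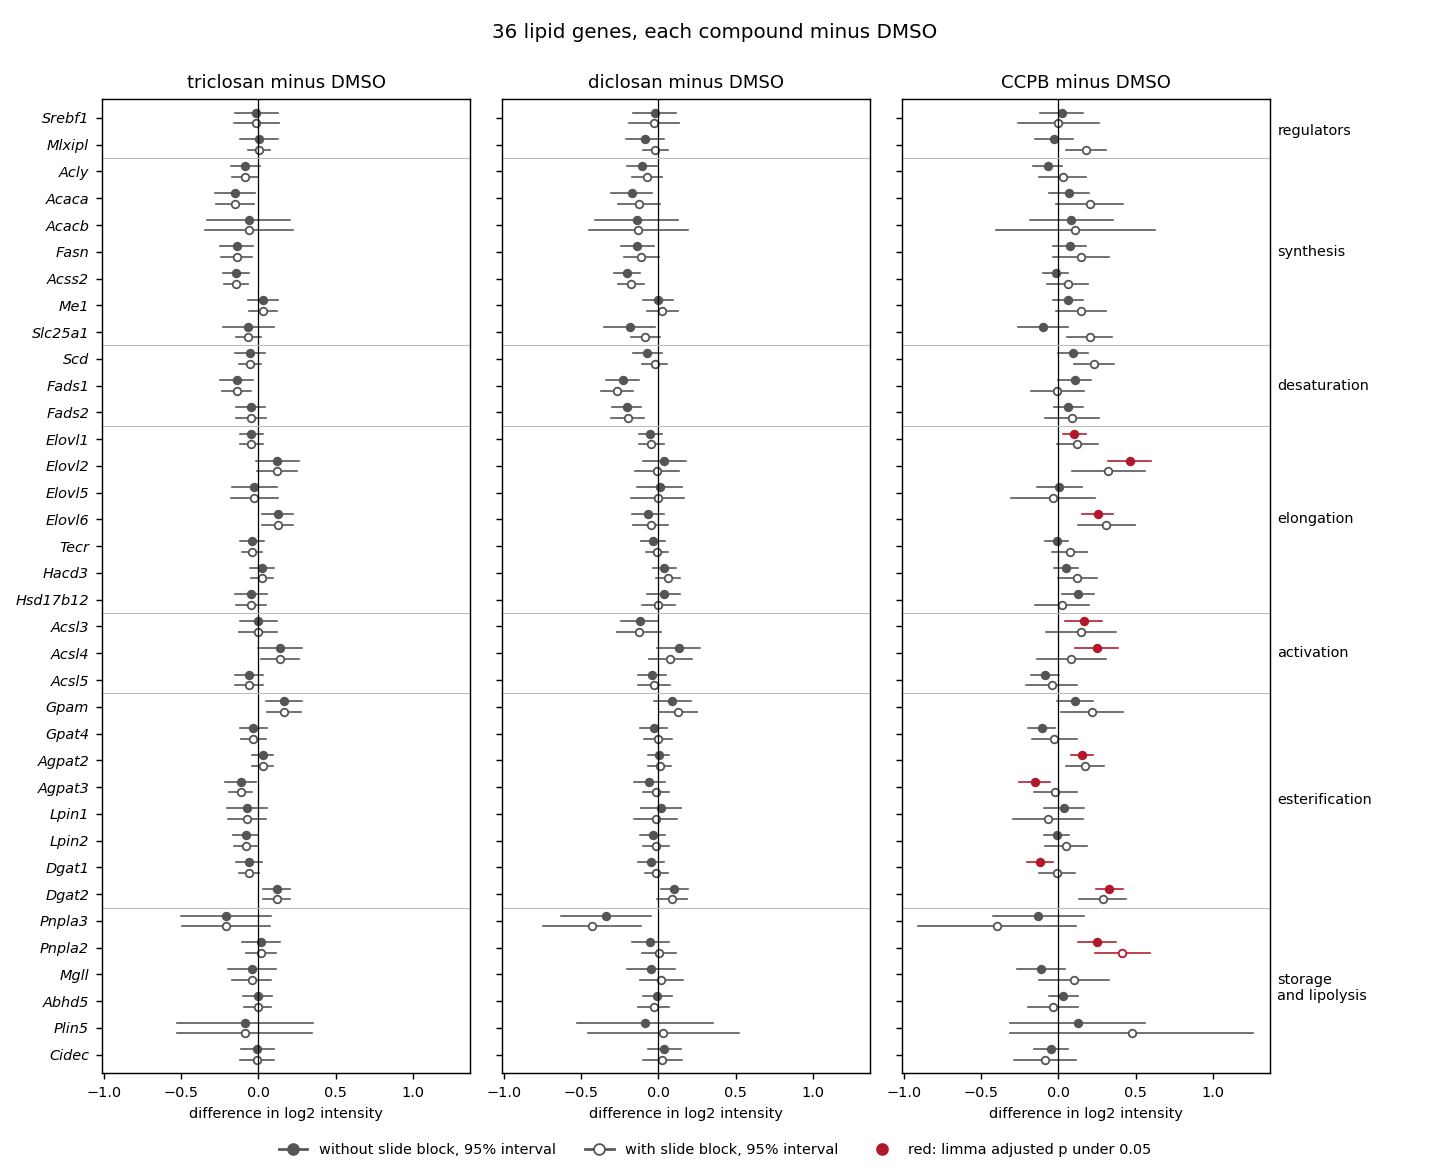
Differences in log2 intensity of 36 lipid genes (rows, grouped by role) for triclosan, diclosan and CCPB, each minus DMSO, 3 arrays a group. Points are limma estimates with 95% intervals, filled without and open with the slide as a block, and red marks an adjusted p under 0.05: there is no red point with triclosan or diclosan, 10 filled red points with CCPB and 1 open red point, Pnpla2.

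Against CCPB, no lipid gene was called higher with triclosan or diclosan by its brightest probe. A dimmer probe of Gpam was called higher with triclosan (0.14, limma adjusted p = 0.0407). In triclosan minus CCPB 11 of 36 were called (20.5% of all genes), all lower (11% of all genes lower, 9.5% higher). In diclosan minus CCPB 13 were called (14.3% of all genes), all lower (6.27%, with 8.06% higher). Their median differences were -0.096 for triclosan and -0.090 for diclosan, against -0.0038 and -0.0013 over all genes. Of the genes called, 10 were lower than with CCPB in both comparisons: Acaca, Fasn, Acss2, Scd, Fads1, Elovl1, Elovl2, Agpat2, Dgat2 and Pnpla2. Hsd17b12 was called with triclosan, and Acsl3, Elovl6 and Fads2 with diclosan. These comparisons share their CCPB arrays, and the share of all genes lower in both was not counted. With the slide block 1 gene was called for triclosan minus CCPB (1.41% of all genes, 0.643% lower), Pnpla2. The block left 9 for diclosan minus CCPB (4.95%, 2.45% lower), and there it compares diclosan replicate 3 with the CCPB arrays of its own slide. On slide 2 alone, with 1 diclosan array, 0 of the 36 and 0% of all genes were called in diclosan minus CCPB, and 16 of the 36 had an unadjusted p under 0.05, against 17.0% of all genes. Median centring left 2 calls with triclosan and 4 with diclosan, and no filter on dim probes 3 and 7. Without triclosan replicate 3 the triclosan calls numbered 4. Shares of all genes called with these changes are not given here. Both fits called Acaca, Acss2, Scd, Fads1, Fads2, Elovl6 and Pnpla2 in diclosan minus CCPB. The share of all genes called in both fits was not counted. Between triclosan and diclosan none was called (0% of all genes, and 0.00491% with the block).

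Promoter sequences of RefSeq (GRCr8, 250 bases before to 50 after the transcript start) were found for 30 of the 37 genes. Shown are those of the genes lower with diclosan than with CCPB in both fits, as far as the table held them, with matches to a GC box (GGGCGG, the site of Sp1) or a CCAAT box in capitals, on either strand.
Pnpla2 (chr1:205982029-205982328, plus strand): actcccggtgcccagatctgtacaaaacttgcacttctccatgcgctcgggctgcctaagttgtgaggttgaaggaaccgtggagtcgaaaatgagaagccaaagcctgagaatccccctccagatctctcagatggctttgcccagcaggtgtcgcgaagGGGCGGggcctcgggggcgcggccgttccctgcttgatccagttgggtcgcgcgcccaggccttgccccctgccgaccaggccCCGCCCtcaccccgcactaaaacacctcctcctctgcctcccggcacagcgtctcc
Scd (chr1:253231682-253231981, minus strand): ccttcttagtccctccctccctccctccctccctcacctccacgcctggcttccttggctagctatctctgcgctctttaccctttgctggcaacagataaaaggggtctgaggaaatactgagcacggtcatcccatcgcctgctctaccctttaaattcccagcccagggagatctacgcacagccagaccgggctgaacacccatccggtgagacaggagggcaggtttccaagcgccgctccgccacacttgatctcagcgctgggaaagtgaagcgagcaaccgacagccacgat
Fads1 (chr1:216252442-216252741, plus strand): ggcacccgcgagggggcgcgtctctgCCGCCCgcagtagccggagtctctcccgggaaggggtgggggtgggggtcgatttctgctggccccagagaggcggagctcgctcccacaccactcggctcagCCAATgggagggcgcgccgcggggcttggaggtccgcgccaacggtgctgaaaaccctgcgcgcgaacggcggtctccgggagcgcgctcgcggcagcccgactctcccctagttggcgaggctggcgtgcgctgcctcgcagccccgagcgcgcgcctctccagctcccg
Fads2 (chr1:216171984-216172283, minus strand): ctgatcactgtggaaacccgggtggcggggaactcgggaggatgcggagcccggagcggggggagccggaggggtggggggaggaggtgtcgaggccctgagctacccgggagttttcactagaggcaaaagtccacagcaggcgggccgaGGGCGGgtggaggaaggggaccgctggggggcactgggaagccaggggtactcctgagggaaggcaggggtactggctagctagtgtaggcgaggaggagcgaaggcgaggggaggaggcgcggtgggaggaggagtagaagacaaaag
Acss2 (chr3:164464453-164464752, plus strand): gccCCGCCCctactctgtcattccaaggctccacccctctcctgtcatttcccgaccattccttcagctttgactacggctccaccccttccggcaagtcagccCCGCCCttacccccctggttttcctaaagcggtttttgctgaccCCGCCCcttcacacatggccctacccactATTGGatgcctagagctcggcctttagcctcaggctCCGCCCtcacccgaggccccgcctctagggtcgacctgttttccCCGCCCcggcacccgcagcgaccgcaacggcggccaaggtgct
The GC box was present in 19 of the 30 promoters, against 33.1% of 33469 promoters of the same length, and the CCAAT box in 16, against 37.5%. A palindromic E-box (CACGTG) was found in 3 of the 30 (6.42% of all). A sterol regulatory element (TCACNCCAC) was found in 0 of the 30 and 1.12% of all. A direct repeat of AGGTCA spaced by 1 base was found in 0 of the 30 and 0.0538% of all. The motifs were searched on both strands, and overlap between matches of different motifs was not examined. A match describes the letters only.

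Neither of the 2 transcriptional regulators was called in any comparison without the block or normexp background correction. Srebf1, which encodes SREBP-1, had levels of 3.15, 3.26 and 3.22 with triclosan, 3.19, 3.20 and 3.22 with diclosan and 3.23, 3.36 and 3.16 with CCPB, against 3.12, 3.32 and 3.24 with DMSO. Mlxipl, which encodes the glucose-responsive factor ChREBP, lay at 1.86, 1.77 and 1.84 with triclosan, at 1.79, 1.81 and 1.59 with diclosan and at 1.81, 1.79 and 1.77 with CCPB, against 1.82, 1.84 and 1.80 with DMSO. The 4 groups overlapped for both genes, and diclosan replicate 3 had the lowest Mlxipl level of the 12 arrays. Srebf1 differed by -0.013 between triclosan and DMSO, by -0.022 between diclosan and DMSO and by 0.023 between CCPB and DMSO. A dimmer probe of Srebf1 differed by -0.22 between CCPB and DMSO (limma adjusted p = 0.0846), so the 2 probes of this gene did not move alike. Mlxipl differed by -0.059 between diclosan and CCPB without the block and was called lower with it (-0.20, limma adjusted p = 0.0398). It was also called lower with normexp background correction and no block (-0.15, limma adjusted p = 0.0418).

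Acaca, Fasn and Acss2, the enzymes that make malonyl-CoA, build palmitate and convert acetate to acetyl-CoA, were lower with triclosan and with diclosan than with CCPB, by 1.09 to 1.18-fold. None of the 7 synthesis genes passed the test against DMSO, although 6 lay below 0 with triclosan (median -0.085) and 7 with diclosan (median -0.14). Over all genes 52.4% and 47.9% lay below 0. Fatty acid synthase, Fasn, measured 3.69, 3.64 and 3.60 on the triclosan arrays, 3.72, 3.63 and 3.60 on the diclosan arrays and 3.90, 3.89 and 3.79 on the CCPB arrays, against 3.74, 3.84 and 3.78 on the DMSO arrays. The triclosan and diclosan arrays all lay below the CCPB and the DMSO arrays. Fasn differed by -0.21 (95% interval -0.32 to -0.11, limma adjusted p = 0.0134) between triclosan and CCPB and by -0.21 between diclosan and CCPB (adjusted p = 0.0163). Against DMSO it differed by -0.14 (95% interval -0.25 to -0.037, limma adjusted p = 0.295) with triclosan, by -0.14 with diclosan and by 0.074 with CCPB, the last passing with normexp background correction (0.17, adjusted p = 0.0345).

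Acss2 had levels of 1.67, 1.65 and 1.72 with triclosan, 1.64, 1.66 and 1.57 with diclosan and 1.78, 1.85 and 1.79 with CCPB, against 1.80, 1.84 and 1.83 with DMSO. Every triclosan and diclosan array was below every CCPB and DMSO array, and the CCPB and DMSO arrays overlapped. Acss2 differed by -0.13 (95% interval -0.21 to -0.046, limma adjusted p = 0.0369) between triclosan and CCPB, and by -0.19 (95% interval -0.27 to -0.10, limma adjusted p = 0.00967) between diclosan and CCPB. The block gave -0.24 for the diclosan comparison (adjusted p = 0.0245). Against DMSO its difference was -0.15 (95% interval -0.23 to -0.063, limma adjusted p = 0.188) with triclosan and -0.20 (95% interval -0.29 to -0.12, limma adjusted p = 0.145) with diclosan, and neither passed.

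Acaca, the cytosolic acetyl-CoA carboxylase, lay at 0.27, 0.11 and 0.071 with triclosan, at 0.21, 0.15 and 0.043 with diclosan and at 0.37, 0.36 and 0.39 with CCPB, against 0.27, 0.37 and 0.27 with DMSO. The CCPB arrays were all above the triclosan and diclosan arrays, while triclosan and DMSO overlapped at triclosan replicate 1. Acaca differed by -0.22 (95% interval -0.35 to -0.090, limma adjusted p = 0.0284) between triclosan and CCPB and by -0.24 (95% interval -0.37 to -0.11, limma adjusted p = 0.0238) between diclosan and CCPB (-0.33 with the block, adjusted p = 0.0411). Its dimmer probe went the same way without being called (-0.21 for triclosan and -0.18 for diclosan, each minus CCPB). ATP citrate lyase, Acly, measured 5.29, 5.24 and 5.21 on the triclosan arrays, 5.30, 5.22 and 5.17 on the diclosan arrays and 5.31, 5.26 and 5.23 on the CCPB arrays, against 5.34, 5.35 and 5.31 on the DMSO arrays. The triclosan and the diclosan arrays were all below the DMSO arrays, and CCPB replicate 1 reached into the DMSO range. Acly differed by -0.085 (95% interval -0.18 to 0.0091, limma adjusted p = 0.482) with triclosan and by -0.11 (95% interval -0.20 to -0.011, limma adjusted p = 0.425) with diclosan. The remaining genes of the group, Slc25a1 (the mitochondrial citrate carrier), Me1 (malic enzyme, a source of NADPH) and Acacb (the carboxylase at the mitochondrial surface), were not called in any comparison without the block. Slc25a1 was lower with diclosan than with CCPB under it (-0.29, limma adjusted p = 0.0164). That value rests on diclosan replicate 3, at 2.55. Diclosan replicates 1 and 2, at 2.84 and 2.86, lay within the CCPB range of 2.80 to 2.90.

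Several of these synthesis calls ended when an array was left out. Against CCPB with triclosan, Fasn missed the threshold without triclosan replicate 3 (limma adjusted p = 0.0507) or CCPB replicate 2 (0.0501), Acaca without triclosan replicate 2 or 3 or any CCPB array (0.0688 to 0.0939), and Acss2 without triclosan replicate 1 or 2, DMSO replicate 2 or 3 or any CCPB array (0.0528 to 0.118). With diclosan, Fasn missed it without diclosan replicate 2 or CCPB replicate 1 or 2 (0.0561 to 0.0625) and Acaca without diclosan replicate 2 or any CCPB array (0.0585 to 0.0721). Median centring and no filter on dim probes each ended all 6 calls (0.0647 to 0.36), the mean over probes those of Acaca (0.0753 and 0.0962), and the slide block ended those of triclosan (0.121 to 0.145) and that of Fasn with diclosan (0.055). A fit of the compared groups alone ended the 3 calls with diclosan (0.0553 to 0.0769) and that of Acss2 with triclosan (0.0717).

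All 3 desaturases were lower with diclosan than with CCPB, with and without the slide block, by 1.12 to 1.26-fold without it. Fads1 and Fads2 make polyunsaturated fatty acids from dietary precursors, and Scd introduces the double bond of oleate and palmitoleate. Fads1 had levels of 2.36, 2.38 and 2.44 with triclosan, 2.27, 2.26 and 2.38 with diclosan and 2.63, 2.67 and 2.62 with CCPB, against 2.45, 2.57 and 2.58 with DMSO. The diclosan and triclosan arrays all lay below the DMSO and CCPB arrays, and the CCPB arrays lay above the DMSO arrays. Fads1 differed by -0.25 (95% interval -0.35 to -0.14, limma adjusted p = 0.00785) between triclosan and CCPB and by -0.34 (95% interval -0.44 to -0.23, limma adjusted p = 0.00179) between diclosan and CCPB. With the block the values were -0.14 (adjusted p = 0.446) for triclosan and -0.26 (0.0406) for diclosan, so the triclosan call was lost. Against DMSO, Fads1 differed by -0.14 (95% interval -0.25 to -0.035, limma adjusted p = 0.304) with triclosan and by -0.23 (95% interval -0.34 to -0.12, limma adjusted p = 0.181) with diclosan, which did not pass.

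Fads2 lay at 0.43, 0.36 and 0.47 with triclosan, at 0.27, 0.27 and 0.25 with diclosan and at 0.47, 0.57 and 0.57 with CCPB, against 0.52, 0.46 and 0.43 with DMSO. The 3 diclosan arrays were the 3 lowest of the 12, and triclosan overlapped with DMSO. Fads2 differed by -0.27 (95% interval -0.37 to -0.18, limma adjusted p = 0.00284) between diclosan and CCPB (-0.29 with the block, adjusted p = 0.031). Median centring ended that call (0.0622). Between triclosan and CCPB the difference was -0.12 (95% interval -0.21 to -0.022, limma adjusted p = 0.0767), which passed with quantile normalization (0.0479), and between diclosan and DMSO it was -0.21 (95% interval -0.30 to -0.11, limma adjusted p = 0.181).

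Scd measured 8.03, 7.98 and 7.93 on the triclosan arrays, 8.01, 8.01 and 7.87 on the diclosan arrays and 8.14, 8.12 and 8.12 on the CCPB arrays, against 8.04, 8.04 and 8.02 on the DMSO arrays. CCPB arrays were all above the other 9, the diclosan arrays were all below the DMSO arrays, and triclosan overlapped with DMSO. Scd differed by -0.15 (95% interval -0.24 to -0.051, limma adjusted p = 0.0389) between triclosan and CCPB and by -0.16 (95% interval -0.26 to -0.067, limma adjusted p = 0.0324) between diclosan and CCPB (-0.25 with the block, adjusted p = 0.0154). Both calls ended without any one CCPB array (0.0821 to 0.0991), with median centring (0.318 and 0.327), quantile normalization (0.103 and 0.0933) or no filter on dim probes (0.15 and 0.145). The triclosan call also ended without any one DMSO array (0.0541 to 0.0575), without triclosan replicate 2 (0.0906) or 3 (0.123) and with the slide block (0.0525), and the diclosan call without DMSO replicate 2 (0.0507) and in a fit of the compared groups alone (0.119). Between CCPB and DMSO Scd differed by 0.093 (95% interval -0.0031 to 0.19, limma adjusted p = 0.132), and it was called without diclosan replicate 3 (0.0479) and with normexp background correction (0.18, adjusted p = 0.00812).

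Among the 7 elongation genes, Elovl1, Elovl2 and Elovl6 rose with CCPB over DMSO without the slide block, by 1.07, 1.38 and 1.19-fold. None of the 7 was called in this comparison with it. Elovl2 extends polyunsaturated fatty acids, Elovl6 extends palmitate towards stearate, and Elovl1 acts on very long saturated chains. Elovl2 had levels of 0.098, 0.20 and 0.25 with triclosan, 0.052, 0.057 and 0.19 with diclosan and 0.52, 0.48 and 0.58 with CCPB, against -0.045, 0.15 and 0.084 with DMSO. Every CCPB array was above every other array, and the remaining groups overlapped. Elovl2 differed by 0.46 (95% interval 0.32 to 0.60, limma adjusted p = 0.000812) between CCPB and DMSO. Against CCPB it differed by -0.34 (95% interval -0.48 to -0.20, limma adjusted p = 0.00628) with triclosan and by -0.42 (95% interval -0.56 to -0.29, limma adjusted p = 0.00219) with diclosan, lower with both. With the slide block its differences kept their signs and did not pass: 0.32 for CCPB minus DMSO (adjusted p = 0.134), -0.20 for triclosan (0.399) and -0.33 for diclosan minus CCPB (0.0529).

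Elovl6 lay at 1.49, 1.62 and 1.61 with triclosan, at 1.43, 1.37 and 1.35 with diclosan and at 1.75, 1.65 and 1.71 with CCPB, against 1.43, 1.49 and 1.44 with DMSO. The CCPB arrays were above all others, the triclosan arrays above all DMSO and diclosan arrays, and diclosan overlapped with DMSO. Elovl6 differed by 0.25 (95% interval 0.15 to 0.36, limma adjusted p = 0.00355) between CCPB and DMSO, by -0.32 (95% interval -0.42 to -0.22, limma adjusted p = 0.00175) between diclosan and CCPB and by -0.13 (95% interval -0.23 to -0.029, limma adjusted p = 0.0666) between triclosan and CCPB. With the block CCPB minus DMSO was 0.31 (adjusted p = 0.0785) and diclosan minus CCPB -0.36 (0.0156). The CCPB call over DMSO also ended with median centring (0.0574) or the mean of the 2 Elovl6 probes (0.0502), and triclosan minus CCPB passed with normexp (-0.26, adjusted p = 0.00222). A dimmer Elovl6 probe differed by 0.11 between CCPB and DMSO (0.344) and by -0.24 between diclosan and CCPB (0.0806), neither called. Elovl1 was lower with triclosan (-0.15, adjusted p = 0.0141) and diclosan (-0.16, 0.0123) than with CCPB. With the block Elovl1 differed by 0.12 between CCPB and DMSO (limma adjusted p = 0.304) and by -0.17 between triclosan and CCPB (0.207). Hsd17b12, which reduces the keto group in the elongation cycle, was lower with triclosan than with CCPB, by a difference of -0.18 (adjusted p = 0.0289), and its dimmer probe by -0.084 without passing (0.432). Elovl5, Tecr and Hacd3 were not called in any comparison.

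Of the 3 acyl-CoA synthetases, Acsl3 and Acsl4 rose with CCPB over DMSO without the slide block, and Acsl5 did not pass. Acsl4 prefers arachidonate, and Acsl3 serves lipid droplets. Acsl4 measured 3.03, 3.17 and 3.22 on the triclosan arrays, 3.05, 3.11 and 3.24 on the diclosan arrays and 3.23, 3.20 and 3.32 on the CCPB arrays, against 2.97, 3.01 and 3.03 on the DMSO arrays. DMSO arrays were the lowest 3, with the highest of them just below triclosan replicate 1, while the compounds overlapped with each other. Acsl4 differed by 0.25 (95% interval 0.11 to 0.39, limma adjusted p = 0.0176) between CCPB and DMSO, and by 0.085 with the slide block (adjusted p = 0.708). The call was also lost without DMSO replicate 1 (0.0574), CCPB replicate 3 (0.0637) or the filter on dim probes (0.0637). Acsl3 differed by 0.16 between CCPB and DMSO (adjusted p = 0.0449) and by -0.28 between diclosan and CCPB (0.00758). With the block Acsl3 differed by 0.15 between CCPB and DMSO (limma adjusted p = 0.488), and neither comparison was called.

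Esterification genes moved both ways with CCPB: of 8, Dgat2 and Agpat2 rose, by 1.26 and 1.11-fold, and Agpat3 and Dgat1 fell by 0.15 and 0.12 on the log2 scale. None of the 8 was called against DMSO with the slide block. Dgat2 and Dgat1 attach the last acyl chain of triglyceride, and Agpat2 and Agpat3 the chain before it on lysophosphatidate. Dgat2 had levels of 5.27, 5.30 and 5.29 with triclosan, 5.23, 5.28 and 5.30 with diclosan and 5.43, 5.53 and 5.53 with CCPB, against 5.14, 5.22 and 5.15 with DMSO. All 3 CCPB arrays were above the other 9, and all triclosan and diclosan arrays were above the DMSO arrays. Dgat2 differed by 0.33 (95% interval 0.24 to 0.42, limma adjusted p = 0.000384) between CCPB and DMSO, and by 0.29 with the block (adjusted p = 0.0588). Against CCPB it differed by -0.21 (95% interval -0.30 to -0.13, limma adjusted p = 0.0062) with triclosan and by -0.23 (95% interval -0.31 to -0.14, limma adjusted p = 0.00458) with diclosan. With the block these were -0.17 (adjusted p = 0.289) for triclosan and -0.20 (0.0731) for diclosan. Median centring ended these last calls (0.0576 and 0.0716). Against DMSO the difference was 0.12 (95% interval 0.031 to 0.20, limma adjusted p = 0.289) with triclosan and 0.10 (95% interval 0.016 to 0.19, limma adjusted p = 0.396) with diclosan.

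Gpam, the mitochondrial acyltransferase that starts glycerolipid synthesis, lay at 1.80, 1.64 and 1.63 with triclosan, at 1.62, 1.69 and 1.54 with diclosan and at 1.61, 1.64 and 1.65 with CCPB, against 1.49, 1.56 and 1.53 with DMSO. Triclosan and CCPB arrays were all above DMSO, and diclosan replicate 3 fell within the DMSO range. Gpam differed by 0.17 (95% interval 0.048 to 0.28, limma adjusted p = 0.275) between triclosan and DMSO, and no comparison was called for this probe. Of its dimmer probes, the first was higher with triclosan than with CCPB (0.14, adjusted p = 0.0407) and the other differed by 0.13 without passing (0.0803). Agpat2 was lower with triclosan (-0.13, adjusted p = 0.0217) and with diclosan (-0.15, 0.0107) than with CCPB. With the block Agpat2 differed by 0.17 between CCPB and DMSO (limma adjusted p = 0.129) and by -0.15 between triclosan and CCPB (0.246). Agpat3 and Dgat1, lower with CCPB than with DMSO (adjusted p = 0.0294 and 0.0416), differed by -0.018 and -0.0076 with the block. A dimmer Dgat1 probe differed by -0.046 between CCPB and DMSO (0.41). The endoplasmic reticulum acyltransferase Gpat4 and the phosphatidate phosphatases Lpin1 and Lpin2 were not called in any comparison.

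Pnpla2, which encodes adipose triglyceride lipase, the enzyme that takes the first acyl chain off stored triglyceride, rose 1.19-fold with CCPB over DMSO and was lower with triclosan and diclosan than with CCPB. It was the only gene of the 36 called in all 3 of these comparisons with and without the slide block. With the block all 3 differences rest on diclosan replicate 3, so these 3 calls are not separate of one another. For Pnpla2 that array differed by -0.16 from the mean of diclosan replicates 1 and 2. Pnpla2 measured 3.11, 3.08 and 3.04 on the triclosan arrays, 3.04, 3.08 and 2.90 on the diclosan arrays and 3.34, 3.34 and 3.25 on the CCPB arrays, against 3.08, 3.11 and 2.98 on the DMSO arrays. CCPB arrays were all above the other 9, which overlapped, and diclosan replicate 3, on the slide of the CCPB arrays, was the lowest. Pnpla2 differed by 0.25 (95% interval 0.13 to 0.37, limma adjusted p = 0.00886) between CCPB and DMSO, and by 0.42 with the block (0.24 to 0.59, adjusted p = 0.0264). Triclosan minus CCPB was -0.23 (95% interval -0.36 to -0.11, limma adjusted p = 0.0175) and -0.40 with the block (0.0474). Diclosan minus CCPB was -0.30 (95% interval -0.43 to -0.18, limma adjusted p = 0.00591) and -0.41 with the block (0.00768). Median centring ended all 3 calls (0.104, 0.118 and 0.0747). The replicate block and slide block together ended those of CCPB minus DMSO (0.0559) and triclosan minus CCPB (0.13). The triclosan call was also lost without triclosan replicate 3 (0.0593), CCPB replicate 1 (0.0572) or CCPB replicate 2 (0.0584) and without the filter on dim probes (0.0733). The diclosan call was lost on slide 2 alone, where diclosan has 1 array (0.128).

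No other storage or lipolysis gene was called by its brightest probe. Pnpla3, a lipid droplet protein, had levels of -2.23, -1.95 and -1.69 with triclosan, -2.11, -2.24 and -1.91 with diclosan and -1.79, -2.02 and -1.81 with CCPB, against -1.75, -1.82 and -1.67 with DMSO. Triclosan replicates 1 and 3 stood on either side of every CCPB array, and the diclosan arrays all lay below the DMSO arrays. Pnpla3 differed by -0.34 (95% interval -0.63 to -0.045, limma adjusted p = 0.41) between diclosan and DMSO. Its probes did not move alike: the dimmer was lower with diclosan than with CCPB (-0.47, adjusted p = 0.0433), where the brighter differed by -0.21 without passing, and for CCPB minus DMSO they gave 0.33 (dimmer, 0.0956) and -0.13 (brighter). Plin5, a coat protein of lipid droplets near mitochondria, lay at -4.03, -4.05 and -4.66 with triclosan, at -4.43, -3.82 and -4.47 with diclosan and at -4.04, -3.96 and -4.10 with CCPB, against -4.06, -4.31 and -4.10 with DMSO. Its groups overlapped, and triclosan replicate 3 was the lowest array. Cidec, which promotes droplet fusion, measured 1.32, 1.36 and 1.41 on the triclosan arrays, 1.42, 1.37 and 1.43 on the diclosan arrays and 1.23, 1.41 and 1.32 on the CCPB arrays, against 1.35, 1.34 and 1.42 on the DMSO arrays. Its groups overlapped too, and it differed by -0.048 between CCPB and DMSO. Mgll, which cleaves monoglycerides, and Abhd5, the coactivator of adipose triglyceride lipase, were also not called.

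**Figure D2:**
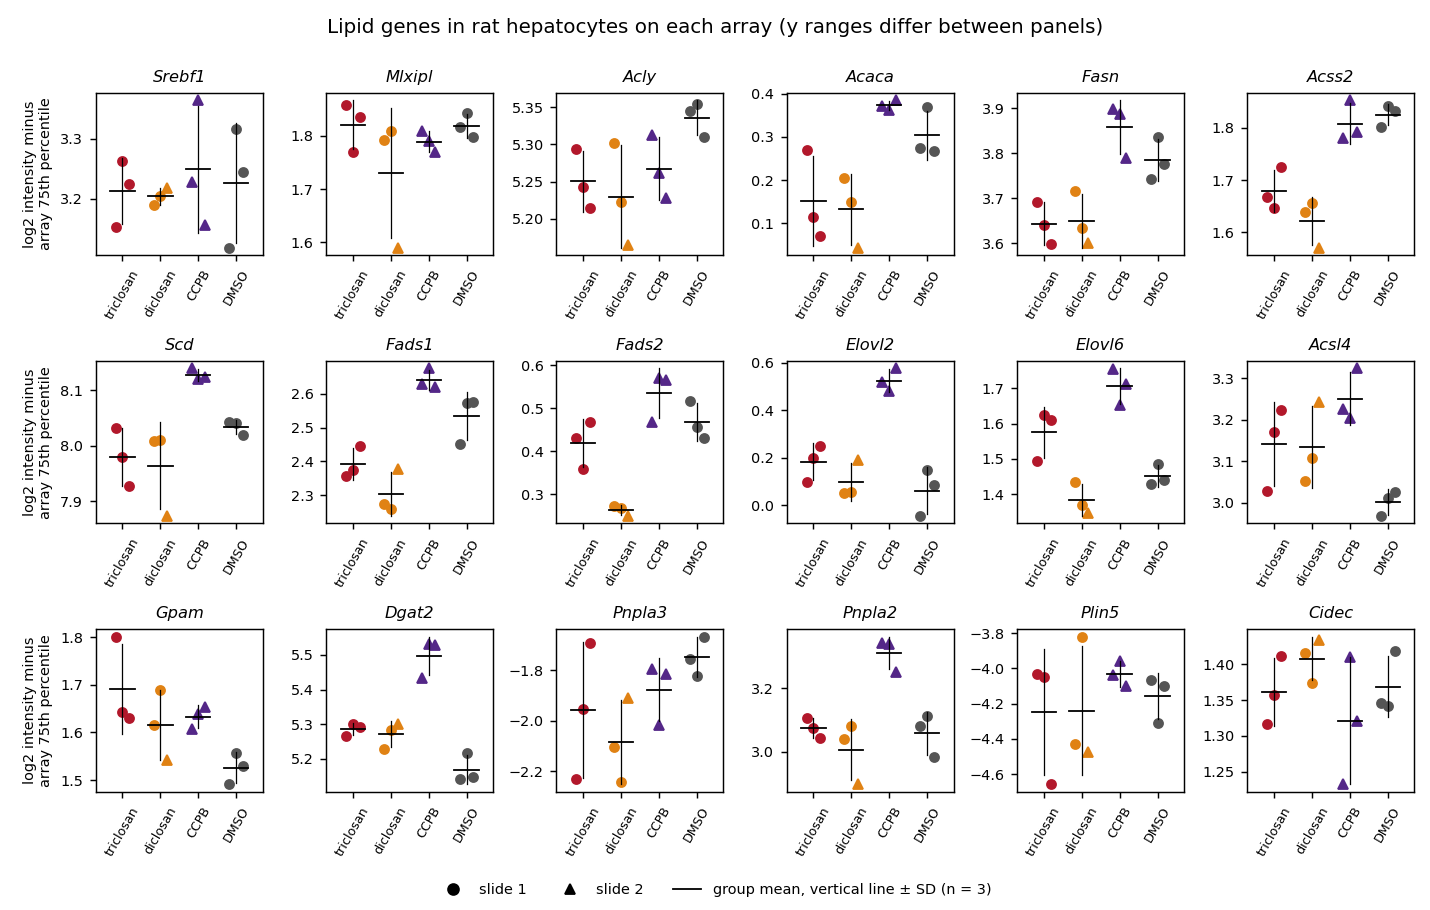
Levels of 18 lipid genes on the 12 arrays (log2 intensity minus the 75th percentile of the array), by group, with circles for slide 1, triangles for slide 2, and the group mean ± SD (n = 3). Pnpla2, Scd, Fads1, Elovl2, Elovl6 and Dgat2 had all 3 CCPB arrays above the other 9. Diclosan replicate 3, the triangle among the diclosan arrays, had the lowest Mlxipl, Acly, Acaca, Acss2, Scd, Fads2, Elovl6 and Pnpla2 levels of the 12.

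The compounds were compared with each other at the same dose and time, in 3 pairs. Triclosan and diclosan, which differ by a chlorine atom, had 0 called genes and a median difference of 0.012 over the 36 (-0.0091 over all genes), with differences between -0.091 (Lpin1) and 0.19 (Elovl6). The members' 95% intervals had a median half-width of 0.105. Elovl6 differed by 0.19 (95% interval 0.090 to 0.29, limma adjusted p = 0.478) and Fads2 by 0.16 (95% interval 0.062 to 0.25, limma adjusted p = 0.539). These were the 2 genes with an unadjusted p under 0.05, beside 6.81% of all genes. Neither passed over all genes. For the genes lower than with CCPB in both comparisons the triclosan minus diclosan intervals held 0 without the block, such as -0.026 to 0.14 for Acss2 and -0.053 to 0.19 for Pnpla2. For Fads1 the interval was -0.018 to 0.20, against 0.020 to 0.23 with the slide block and 0.0048 to 0.25 on slide 1 alone, and it was not called in either (adjusted p = 0.595 and 0.683). Fads2, Elovl6 and Acsl3 had all 3 triclosan arrays above all 3 diclosan arrays, 3 of 36 genes beside 4.59% of all genes.

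CCPB differs from triclosan and diclosan by the absent hydroxyl group and by the position or number of chlorine atoms. Against CCPB, 27 of 36 genes lay below 0 with triclosan (51.0% of all genes) and 29 with diclosan (50.4%). The groups of genes concerned were synthesis (3 of 7 lower with each compound), desaturation (2 of 3 with triclosan and 3 of 3 with diclosan), elongation (3 of 7 with each), activation (0 of 3 with triclosan and 1 of 3 with diclosan), esterification (2 of 8 with each) and storage and lipolysis (1 of 6 measured with each), beside 11% of all genes lower with triclosan and 6.27% with diclosan. These counts are without the slide block, and CCPB shares no slide with triclosan. With the block triclosan had 1 lower gene, in storage and lipolysis (0.643% of all genes lower). Diclosan had 3 of 7 in synthesis, 3 of 3 in desaturation, 1 of 7 in elongation and 0 in activation and esterification. It also had 1 of 6 in storage and lipolysis and 1 of 2 regulators (2.45% of all genes lower). The part of the slide in these counts was not tested. Without the block Fads2, Elovl6 and Acsl3 passed with diclosan and not with triclosan, and none of them was called in triclosan minus diclosan.

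**Figure D3:**
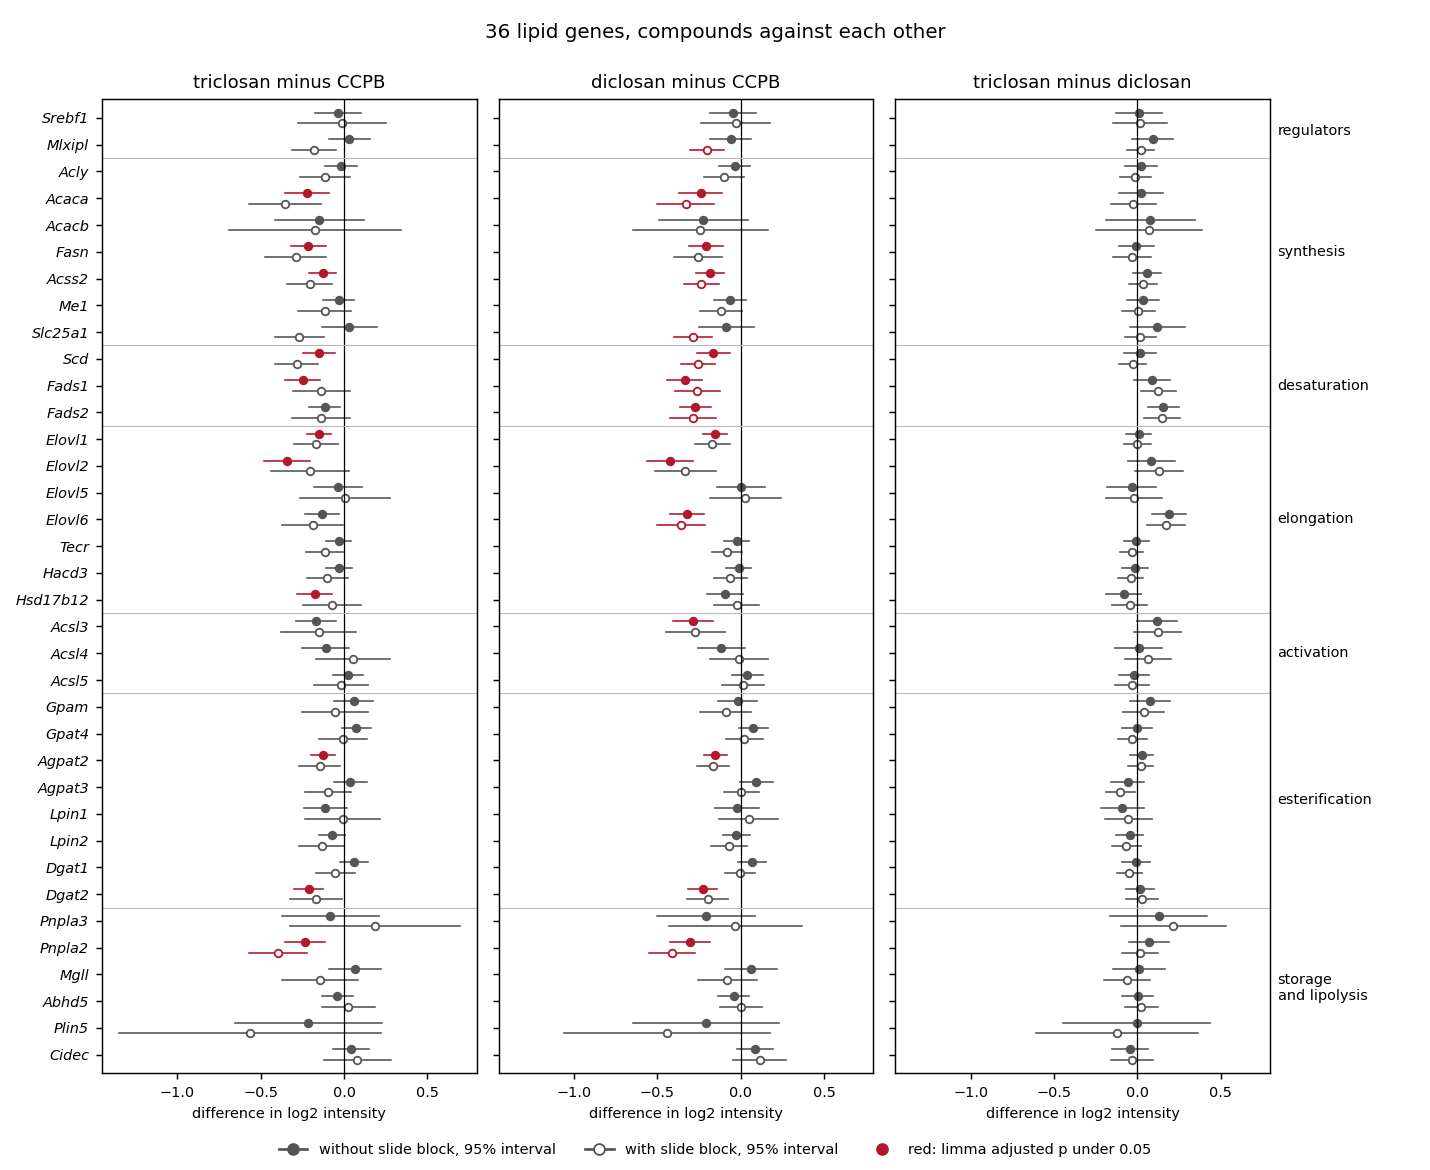
Differences in log2 intensity of 36 lipid genes for triclosan minus CCPB, diclosan minus CCPB and triclosan minus diclosan, 3 arrays a group, as limma estimates with 95% intervals, filled without and open with the slide as a block. Red marks an adjusted p under 0.05: 11 and 13 filled points lie below 0 in the comparisons with CCPB, 1 and 9 open points are red there, and none is red between triclosan and diclosan.

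Other genes of the pathway, on lists of regulators, NADPH and acetyl-CoA supply, further desaturation, elongation and acyltransferase enzymes, droplet proteins and fatty acid uptake, numbered 70, of which 51 were measured. Against DMSO 0 passed with triclosan and 0 with diclosan, and 13 were higher and 5 lower with CCPB (14.2% and 14% of all genes). With the block, 2 were higher and 1 lower with CCPB (1.65% and 1.79%). Triclosan minus CCPB had 4 higher and 10 lower (9.5% and 11% of all genes), and diclosan minus CCPB 3 higher and 10 lower (8.06% and 6.27%). With the block these were 1 and 0 for triclosan (0.766% and 0.643%) and 0 and 7 for diclosan (2.5% and 2.45%), and 0 were called between triclosan and diclosan. The gene higher with triclosan than with CCPB under the block was Elovl7, which was also called without it. Of the genes higher with diclosan than with CCPB, Hacd1 and Fads3 among them, none was called with the block. The genes lower with diclosan than with CCPB in both fits, picked after their values were seen, were Plin2, Thrsp, Nr1h3, Insig2, Aadac and Slc27a2. The share of all genes lower in both fits was not counted. Plin2, the main coat protein of hepatocyte lipid droplets, differed by -0.33 (limma adjusted p = 0.00163) and by -0.26 with the block (0.0377). Thrsp, a lipogenic protein that responds to thyroid hormone, differed by -0.40 (0.00213) and -0.48 with the block (0.0107). Nr1h3, the oxysterol receptor LXRalpha that raises Srebf1, differed by -0.22 (0.00159) and -0.21 (0.0271). Insig2, which retains SREBPs in the endoplasmic reticulum, differed by -0.31 (0.00452) and -0.36 with the block (0.0278). Aadac, a hydrolase of the endoplasmic reticulum, differed by -0.36 (0.00137) and -0.38 with the block (0.018). Slc27a2, which imports and activates fatty acids, differed by -0.36 (0.00425) and -0.42 with the block (0.0239). Insig2 and Aadac were also higher with CCPB than with DMSO in both fits, Insig2 by 0.36 (0.00123) and 0.44 with the block (0.0434), and Aadac by 0.44 (0.000273) and 0.48 with the block (0.0265). Against DMSO, Plin2 was higher with CCPB by 0.34 (0.000914), and by 0.23 with the block (0.141).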

How the data were processed

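RNA of 12 samples was hybridised to 12 one-colour Agilent rat arrays. The deposited scanner files hold, per the file headers, the processed signal that Feature Extraction 10.7.1.1 gave each spot, and median intensity columns on a linear scale; further steps of the authors are not given in the sources used here. The authors' deposited value table holds the same signal on a linear scale relative to each array (lowest correlation with the scanner files 0.9999 on the log2 scale, column medians 0.048 to 0.055), with no centring of genes. Control, non-uniform and population-outlier spots were left out of 62976 per array. The log2 signal was averaged over spots of a probe and lowered by the 75th percentile of its array. A probe was kept if well above background on all 3 arrays of a group (24254 probes), and a gene was read from its brightest probe. Probes were named through RefSeq transcripts (21211 named, 24368 without a symbol).

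All 12 arrays entered a limma 3.58.1 fit (R 4.3.3, lmFit and eBayes) with 6 two-sided contrasts, Benjamini-Hochberg adjusted over 20359 genes. The fit was tested on simulated data drawn independently for each array with no slide difference, so comparisons between slides were not covered by that test. No spot was saturated, and the number of arrays limits the precision. Alternatives were the slide or the replicate number as a block, the compared groups alone, other scalings, normexp background correction with an offset of 50, other probe rules and each array left out. The normexp step used the median spot intensity because the mean is not among the columns used here.

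The members, lists and tests were chosen with earlier results of these data known. Genes described in full were those called with and without the slide block, the 4 called genes with the largest difference in each comparison, the gene of each role with the smallest p for CCPB minus DMSO, and a fixed set of well-known members. Other members are given by counts or brief values. Within-slide values exist for triclosan minus DMSO, and for diclosan with part of its arrays.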

Additional observations from a re-analysis of the deposited data

How the results depend on the processing

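Of the 36 genes, 0 were called for triclosan minus DMSO, diclosan minus DMSO and triclosan minus diclosan under every alternative run. For CCPB minus DMSO the 10 calls became 3 with median centring, 4 with no filter on dim probes and 1 with the slide block, and ranged from 5 to 13 with an array left out (5 without CCPB replicate 3, 6 without any one DMSO array). For triclosan minus CCPB the 11 calls became 2, 3 and 1 under the same settings, and ranged from 4 to 11 with an array left out (4 without triclosan replicate 3, 5 without triclosan replicate 2 or CCPB replicate 2, 6 without CCPB replicate 1 or 3). For diclosan minus CCPB the 13 calls became 4 with median centring, 7 with no filter, 7 in a fit of the compared groups alone and 0 on slide 2 alone, and ranged from 10 to 15 with an array left out. Deviations from the group means of 18 same-numbered pairs of arrays correlated at -0.165 to 0.117 (median -0.014). Those of 36 other pairs correlated at -0.170 to 0.173 (median 0.015). With 3 arrays a group these values cannot show whether same-numbered arrays came from 1 experiment. With the replicate block the calls were 9 for CCPB minus DMSO, 10 for triclosan minus CCPB and 13 for diclosan minus CCPB. With the replicate block and the slide block together they were 0, 0 and 1. Over the 18 genes described in full, the 23 called comparisons had 539 values under alternatives, of which 419 kept the call and 120 lost it. In comparisons not called, 7 values passed, and 0 of all 2556 reversed. The cause of these losses was not tested.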

Other observations

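Diclosan replicate 3, the diclosan array on the slide of the CCPB arrays, differed from the mean of diclosan replicates 1 and 2 by a median of -0.059 over the 36 lipid genes, with 24 of them below 0 (66.7%). Over all 20359 genes the median was -0.0078 with 51.9% below 0. Among the lipid genes the differences ran between -0.35 for Plin5 and 0.27 for Pnpla3. This array alone ties the CCPB slide to the other, so it enters each difference between CCPB and another group that is given with the slide as a block. Over all genes its median absolute difference was 0.114 from diclosan replicate 1 and 0.113 from replicate 2, in log2 levels. The other pairs of arrays within a group lay between 0.0649 and 0.0848.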
